A study of Mus musculus with 6 samples.

Results

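Myosin light chains, the kinases that phosphorylate them and the thick filament proteins bound to the same myosin were followed in skeletal muscle of transgenic and wild-type mice. The members are 10 genes, chosen by name, out of 19938 genes tested: the regulatory light chains Mylpf and Myl2, the essential light chains Myl1, Myl3, Myl4 and Myl6b, the kinases Mylk2 and Mylk4, and the myosin binding protein genes Mybpc2 and Mybph. A gene was taken through the probe sets that the platform annotation ties to its symbol alone, and each of the 10 members had 1 such probe set. RNA from 3 mice labelled transgenic (TG) and 3 labelled wild type (WT), a separate subject per array, was hybridised to Affymetrix MoGene arrays, under the series title SOCS-3 in muscle. All 6 samples are total RNA of frozen tissue, with the transgene's content and promoter, and the strain, age, sex and muscle of either group, not given in the sources used here. Values are log2 expression as deposited, so a difference of 1 is a doubling, and differences are TG minus WT.

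Each myosin heavy chain carries 1 essential and 1 regulatory light chain on its neck, next to the motor domain. Striated muscle uses different light chain genes by fibre type: Myl1 and Mylpf in fast fibres, Myl2 and Myl3 in slow fibres and the ventricle of the heart, and Myl4 in developing muscle and the atrium. Calcium and calmodulin switch on skeletal myosin light chain kinase, encoded by Mylk2, which phosphorylates the regulatory light chain and strengthens contraction after repeated stimulation. Myosin phosphatase removes that phosphate, and the C and H binding proteins lie along the thick filament.

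Array medians were 5.98 to 6.04, and array pairs correlated across genes at 0.9947 to 0.9959 inside a group and at 0.9943 to 0.9960 across groups. Socs3, named in the series title, stood at 7.12, 7.25 and 7.07 in TG and at 7.43, 7.41 and 7.37 in WT. The TG values were all below the WT values, as in 7.76% of all genes. The Socs3 difference of -0.26 did not pass over all genes (limma, unadjusted p = 0.0078, adjusted p = 0.660). These values check no label, since the content of the transgene is unstated. All 10 skeletal muscle markers were bright, with list means of 13.75 to 13.76 in TG and 13.75 to 13.80 in WT and no single value under 12.84. Transcripts of other tissues varied between arrays. The mean of 8 liver genes, all 8 with differences below 0 and a median of -0.66, ran from 5.97 on TG array 3 to 8.42 on TG array 2, against 7.41 to 8.07 in WT, and all 7 bone and osteoclast genes measured had their highest value on TG array 1, where their mean was 7.28, with 6.74 and 6.30 on the other TG arrays, against 6.17 to 6.46 in WT. None of the liver or bone genes passed the test described next (limma), with 0 and 2 at an unadjusted p under 0.05. Those 2, Acp5 and Ctsk, were higher in TG, against 1.96% of all genes in that direction and 4.79% with TG lower. Differences below 0, as in all 8 liver genes, were found in 56.2% of all genes. In bulk muscle, fewer fibres of a type and less RNA per fibre cannot be told apart.

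The comparison asked how transcript levels of the contractile machinery differed between TG and WT muscle. None of the 10 members passed the threshold of an adjusted p of 0.05 over all genes (limma), where 1 of 19938 genes, 0.00502%, did. One member, Mylk2, had an unadjusted p under 0.05, with lower values in TG, against 4.79% of all genes in that direction, and 0 members had one with higher values, against 1.96%. Both directions together made up 6.75% of all genes. Mylk2 was also the one member whose groups did not overlap, against 12.3% of all genes in both directions and 7.76% with TG lower. The differences of 7 members were below 0, with a median of -0.03, while 56.2% of all genes were below 0, with a median of -0.02.

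**Figure D1:**
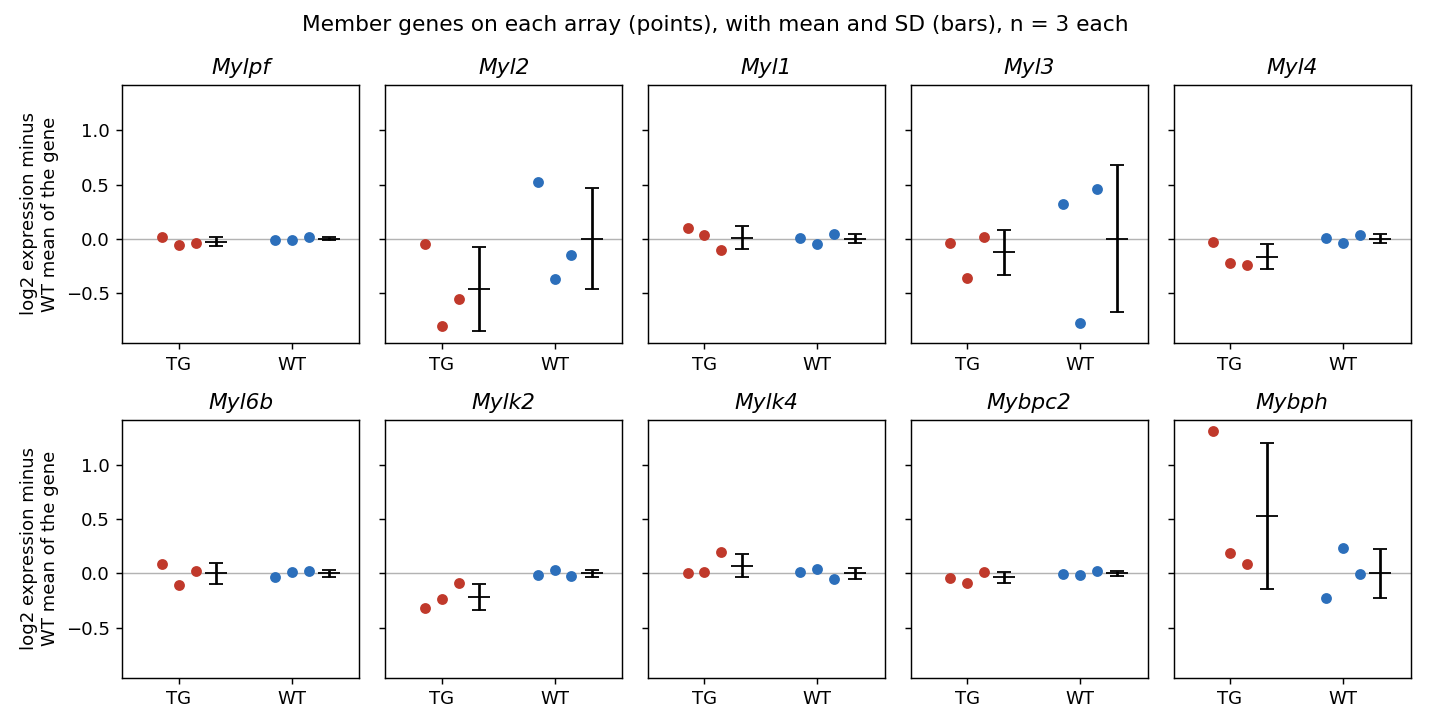
Log2 expression of each member gene on every array, minus that gene's WT mean, with TG left of WT in each panel and bars for mean and SD of 3 arrays. Mylpf, Mybpc2 and Myl6b stay within 0.2 over all 6 arrays, Myl2, Myl3 and Mybph spread over 1.24 to 1.54, and Mylk2 is the panel in which the TG points lie below all WT points.

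The members differed widely in how much they varied between arrays of 1 group. Mylpf spanned 0.08 over the 6 arrays and had a smaller SD within groups than all but 2.31% of genes, whereas the SD of Myl2, Myl3 and Mybph exceeded that of 99.3%, 99.6% and 99.6% of genes. Bright probe sets vary less on these arrays, so each member was also set beside the 1000 genes nearest to it in mean level. There Mylpf varied more than 12.3% of them, Myl6b more than 14.3% and Mybpc2 more than 24.0%, while Myl2, Myl3 and Mybph varied more than 99.2%, 99.2% and 99.6%. Myl1, Mylk2 and Mylk4, which varied more than 27.57%, 33.35% and 32.76% of all genes, varied more than 72.2%, 78.3% and 77.7% of those near in level. Myl4 varied more than 57.7% of them. Mylpf, Mybpc2, Myl1, Mylk2 and Mylk4 lay above 99.52% to 99.89% of all genes by level. Most of the 1000 genes nearest to each of these were therefore dimmer, and their levels were not fully matched. The 10 skeletal muscle markers, with no value under 12.84, had a median SD within groups of 0.0255, against 0.0296 for Mylpf. For Mybph the SD was 0.68 in TG and 0.23 in WT, for Myl2 0.39 and 0.47, and for Myl3 0.21 and 0.68. How far a probe set stood above background is not known from these values, and Myl2 and Myl6b lay near the middle of all genes by level, above 48.8% and 49.6% of them.

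The sequences before the annotated start sites of the variable genes Mybph and Myl3 and of the bright gene Mylpf are shown. They set the promoter letters of these members side by side. The sequences come from RefSeq on build GRCm38.p6, cover the 250 bases before the start, and are at chr1:134193198-134193447 for Mybph, chr9:110763428-110763677 for Myl3 and chr7:127211358-127211607 for Mylpf, all on the plus strand. Capitals mark matches on either strand to the E-box CANNTG, the site of myogenic factors such as MyoD, to TATAAA, to the MEF2 site or to the CArG box, the site of serum response factor.
Mybph: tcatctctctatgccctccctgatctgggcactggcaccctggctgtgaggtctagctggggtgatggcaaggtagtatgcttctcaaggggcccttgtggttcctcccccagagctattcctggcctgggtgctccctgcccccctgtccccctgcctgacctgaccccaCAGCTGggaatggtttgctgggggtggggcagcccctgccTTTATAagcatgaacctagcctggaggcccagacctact
Myl3: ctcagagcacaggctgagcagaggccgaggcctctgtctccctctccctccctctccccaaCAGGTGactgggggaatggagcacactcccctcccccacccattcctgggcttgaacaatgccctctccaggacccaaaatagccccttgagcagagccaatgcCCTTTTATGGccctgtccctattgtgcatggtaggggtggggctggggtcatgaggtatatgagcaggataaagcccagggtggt
Mylpf: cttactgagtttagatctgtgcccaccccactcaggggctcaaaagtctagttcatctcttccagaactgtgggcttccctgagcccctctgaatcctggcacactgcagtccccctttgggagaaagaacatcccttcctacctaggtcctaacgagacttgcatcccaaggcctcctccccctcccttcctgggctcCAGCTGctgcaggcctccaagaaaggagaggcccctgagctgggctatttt
The E-box in Mybph and in Mylpf is the CAGCTG form, which is itself a CANNTG match, beginning 79 and 51 bases before the start. Myl3 has a CANNTG match 189 bases before the start and a CArG box at 85, and Mybph has TATAAA, read on the opposite strand, at 39. Of 32851 windows of this length over all genes, 66.2% held CANNTG, 13.0% CAGCTG, 12.4% TATAAA, 2.92% the MEF2 site and 1.47% the CArG box. RefSeq windows matched 9 members, without Mylk2, in 10 windows, since Myl2 has 2 start sites. CANNTG stood in 9 of the 10 windows, all but that of Myl4, CAGCTG in 5, of Mybph, Myl1, Myl2, Mylk4 and Mylpf, and TATAAA in 3, of Mybph, Myl1 and Myl2. Among the windows of members the CArG box was in that of Myl3 and the MEF2 site in that of Mylk4. These matches describe the letters and are not evidence of binding.

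**Figure D2:**
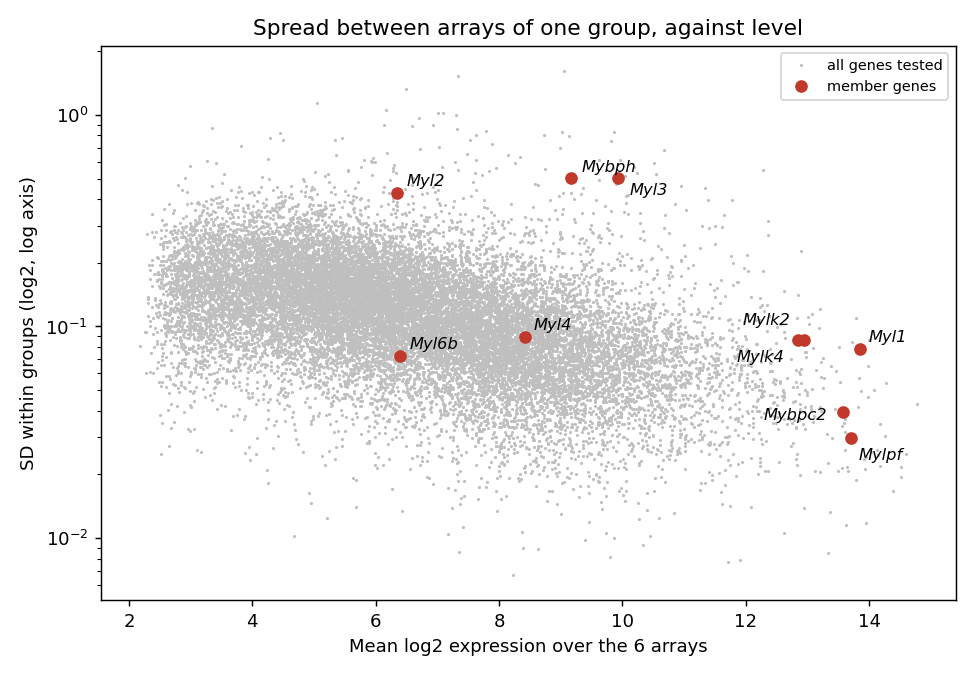
SD within groups (log axis) against mean log2 expression over the 6 arrays, for all 19938 genes tested in grey and the 10 members in red. Myl2, Myl3 and Mybph, with SDs of 0.43, 0.50 and 0.51, lie at the upper edge of the cloud, and Mylpf and Mybpc2, with 0.03 and 0.04, lie low at its bright end.

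The fast regulatory light chain Mylpf (probe set 10557575), the main substrate of the skeletal kinase, was at 13.73, 13.66 and 13.68 in TG and at 13.71, 13.71 and 13.73 in WT. The groups overlapped, with TG array 1 level with the highest WT array. Its difference was -0.03 (SE 0.06; limma, adjusted p = 0.950), and the 95% interval, as a fold of TG over WT, ran from 0.888 to 1.08. The slow regulatory light chain Myl2 (probe set 10525343) was at 6.54, 5.78 and 6.03 in TG and at 7.11, 6.22 and 6.43 in WT. TG array 2 was the lowest array and WT array 1 the highest, and TG array 1 lay above the other two WT arrays. The difference of -0.47 (SE 0.26; limma, adjusted p = 0.791) was 0.723-fold, with an interval from 0.474 to 1.10. Left out 1 at a time, the arrays moved the Myl2 difference between -0.68, with TG array 1 left out, and -0.21, with WT array 1 left out.

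Among the essential light chains, the fast gene Myl1 (probe set 10355259), which yields a long and a short protein from separate promoters and has 1 value per array here, was at 13.94, 13.87 and 13.74 in TG and at 13.85, 13.79 and 13.88 in WT. TG arrays held both its highest and its lowest value, and the difference was 0.01 (SE 0.08; limma, adjusted p = 0.989), with a fold interval from 0.892 to 1.14. Myl3 (probe set 10589602), the slow and ventricular form, was at 9.96, 9.63 and 10.01 in TG and at 10.32, 9.22 and 10.46 in WT. The 3 TG arrays lay between WT array 2, which was lowest, and the other WT arrays, which were highest. Its difference was -0.13 (SE 0.31; limma, adjusted p = 0.953), and it lay above 0, at 0.03 and 0.10, without WT array 1 and without WT array 3, and at -0.52 without WT array 2.

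The atrial and developmental form Myl4 (probe set 10381798) was at 8.48, 8.28 and 8.26 in TG and at 8.51, 8.46 and 8.54 in WT. TG array 1 fell among the WT values, with TG arrays 2 and 3 below them. The difference was -0.16 (SE 0.08; limma, adjusted p = 0.756), and without 1 array at a time it ran from -0.23 to -0.13. Myl6b (probe set 10373400), the remaining essential light chain among the members, was at 6.49, 6.29 and 6.42 in TG and at 6.37, 6.41 and 6.42 in WT. The TG arrays surrounded the WT arrays, and the difference was under 0.01 in size (interval -0.17 to 0.17).

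Of the kinases, Mylk2 (probe set 10477206) was at 12.73, 12.81 and 12.96 in TG and at 13.04, 13.08 and 13.03 in WT. Every TG array was lower than every WT array. The difference was -0.22 (SE 0.08, interval -0.40 to -0.03), or 0.861-fold, and did not pass over all genes (limma, unadjusted p = 0.0264, adjusted p = 0.719). It ran from -0.28 to -0.16 under 14 alternatives, with adjusted p from 0.556 to 0.937. Its sign could not change when 1 array was left out, since the groups did not overlap. Alternatives that alter only the variance or the adjustment left the difference at -0.22. Mylk4 (probe set 10408543), a less studied kinase of the same family, was at 12.82, 12.82 and 13.01 in TG and at 12.83, 12.85 and 12.76 in WT. TG array 3 was highest, with the other arrays of both groups mixed, and the difference was 0.07 (SE 0.08; limma, adjusted p = 0.875). A test of whether the differences of Mylk2 and Mylk4 differ from each other was not made.

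The fast C-type binding protein gene Mybpc2 (probe set 10562784) was at 13.55, 13.51 and 13.61 in TG and at 13.59, 13.57 and 13.61 in WT. The groups overlapped and the difference was -0.04 (SE 0.06; limma, adjusted p = 0.931), with a fold interval from 0.879 to 1.08. Mybph (probe set 10349980), which encodes myosin binding protein H, was at 10.21, 9.09 and 8.99 in TG and at 8.67, 9.13 and 8.90 in WT. TG array 1 stood more than 1 above every other array, which all lay between 8.67 and 9.13. The difference of 0.53 (SE 0.31; limma, adjusted p = 0.791), the highest among the members, was 0.14 without TG array 1.

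TG array 1 also held the highest values of the 7 bone and osteoclast genes, and the highest mean of 6 fibroblast genes (9.92, against 9.64 to 9.72 in WT). Of all genes, 13.5% had their highest value there. The fibroblast genes had 5 of 6 differences above 0, and 0 passed (limma). The 1 fibroblast gene at an unadjusted p under 0.05, Pi16, was the exception, at -0.28. Over all genes, 4.79% had such a p with TG lower, and 56.2% had differences below 0. Picked after their values were seen, the cardiac and embryonic actin gene Actc1 and the myogenic factor gene Myog were highest there too. Actc1 was at 12.91, 12.26 and 11.60 in TG and at 12.51, 11.81 and 12.54 in WT. Myog was at 6.84, 6.34 and 6.30 in TG and at 6.66, 6.39 and 6.49 in WT. Of 10 genes of developing and regenerating fibres, the list that holds Myog, 2 were highest and 1 lowest on that array, and of 8 heart markers, the list that holds Actc1, 2 were highest and 3 lowest. The part of these transcripts in the Mybph value was not tested.

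**Figure D3:**
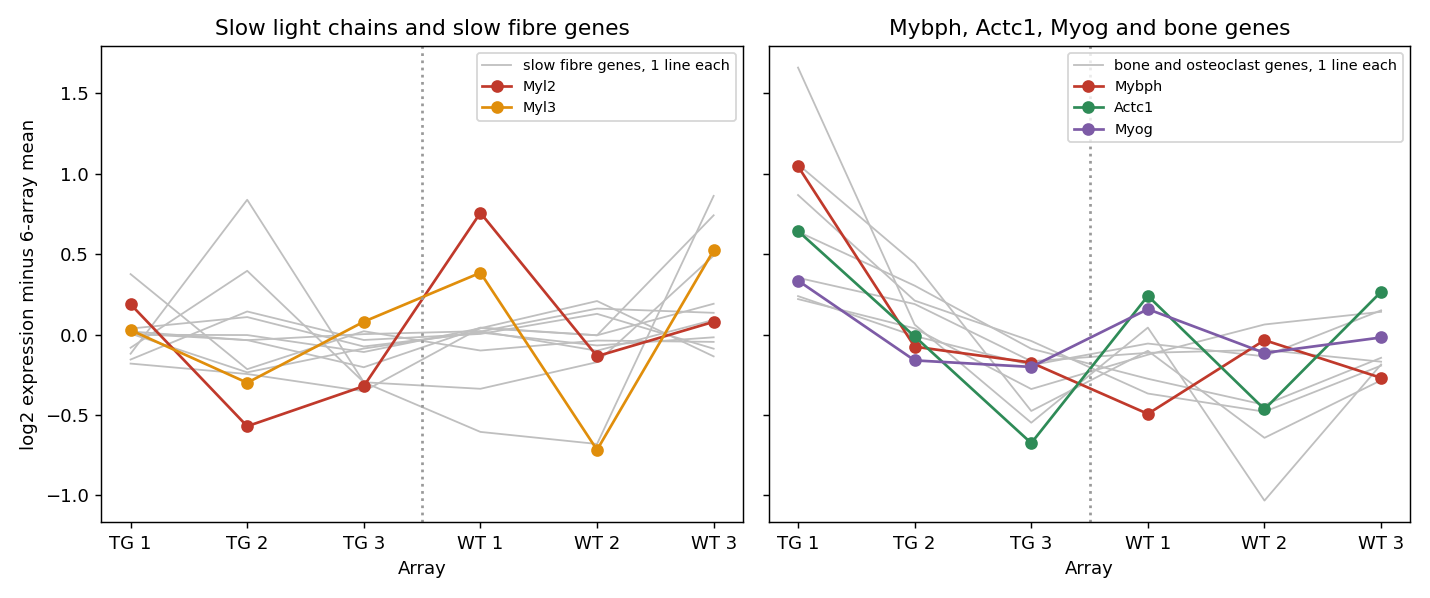
Log2 expression minus the mean of the 6 arrays, by array, for Myl2 and Myl3 with the 10 slow fibre genes (left) and for Mybph, Actc1 and Myog with the 7 bone and osteoclast genes (right), with the TG arrays left of the dotted line. Myl2 has its highest point on WT array 1 and Myl3 on WT array 3, and Mybph and all 7 bone genes have their highest point on TG array 1.

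The other genes around myosin gave few differences. Of 8 further light chain and kinase genes, 0 passed (limma) and 0 had an unadjusted p under 0.05, with differences from -0.08 to 0.09. Those with the smallest p were the non-muscle regulatory light chain gene Myl12a at 0.09 (SE 0.09) and the non-muscle essential light chain gene Myl6 at -0.08 (SE 0.09). The kinase genes of smooth and heart muscle, Mylk and Mylk3, were at -0.03 and under 0.01 in size. None of 3 further binding protein genes passed either. One of them, Mybpc1, had an unadjusted p under 0.05 with TG higher, against 1.96% of all genes in that direction.

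Mybpc1, the slow-type C protein gene, was at 13.34, 13.32 and 13.34 in TG and at 13.06, 13.06 and 13.11 in WT. Its groups did not overlap, with a difference of 0.26 (SE 0.06, interval 0.12 to 0.40), or 1.20-fold, although the adjusted p was 0.627 (limma). The Mybpc1 SD within groups, 0.02, was smaller than that of all but 0.647% of genes. Groups that did not overlap by any margin, with TG higher, were found in 4.52% of all genes. Mybpc3, the cardiac form, was at -0.08 (SE 0.06).

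Among 11 measured genes of calmodulin and myosin phosphatase, which act on either side of the kinase step, 0 passed (limma) and 0 had an unadjusted p under 0.05, with a median of -0.01. The phosphatase inhibitor gene Ppp1r14b was at 10.36, 10.31 and 10.29 in TG and at 10.41, 10.54 and 10.47 in WT, a difference of -0.15 (SE 0.07). The kinase gene Rock1, whose product inhibits myosin phosphatase, was at 0.11 (SE 0.07). Groups did not overlap for 3 of the 11: Ppp1r14b with TG lower, against 7.76% of all genes, and Rock1 and the phosphatase targeting subunit gene Ppp1r12a, at 0.11 and 0.10, with TG higher, against 4.52%.

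**Figure D4:**
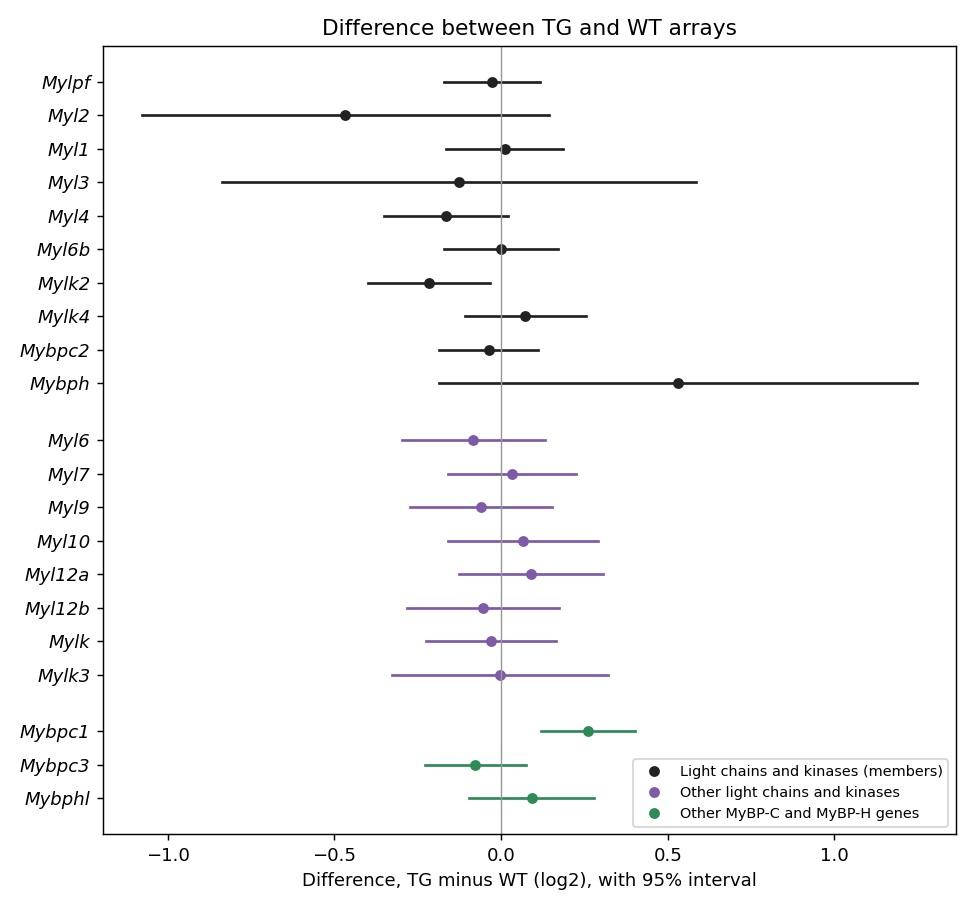
Difference TG minus WT (log2) with its 95% interval for the 10 members, 8 further light chain and kinase genes and 3 further binding protein genes. The intervals of Mylk2, at -0.22, and Mybpc1, at 0.26, exclude 0 before adjustment, and those of Myl2, Myl3 and Mybph are the widest.

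No heavy chain gene that pairs with these light chains passed (limma). Myh4 and Myh1, of the fastest fibres, were at 0.03 (SE 0.07) and 0.06 (SE 0.06), and Myh2, of oxidative fast fibres, was at -0.30 (SE 0.14), with 11.85, 11.91 and 11.86 in TG and 12.01, 11.97 and 12.52 in WT. Every TG array of Myh2 was lower than every WT array (limma, adjusted p = 0.755), a pattern found in 7.76% of all genes. For Myh1 every TG array was higher than every WT array (limma, adjusted p = 0.867), found in 4.52% of all genes. The slow heavy chain gene Myh7 was at 6.12, 6.42 and 6.24 in TG and at 6.28, 6.40 and 6.19 in WT, and the developmental forms Myh3 and Myh8 were at -0.14 and 0.08. Of 11 fast fibre genes, 0 passed (limma), 0 had an unadjusted p under 0.05 and 9 were below 0, with a median of -0.02. Over all genes, 56.2% were below 0, with a median of -0.02 too. Among 10 slow fibre genes, 0 passed (limma) and 2 had an unadjusted p under 0.05, both lower in TG: the calsarcin gene Myoz2 at -0.52 (SE 0.19) and the slow troponin T gene Tnnt1 at -0.21 (SE 0.08). Of 10 measured genes of developing and regenerating fibres, 0 passed (limma) and 2 had an unadjusted p under 0.05, Myod1, which encodes MyoD, at -0.48 (SE 0.17) and the fetal acetylcholine receptor gene Chrng at -0.26 (SE 0.11). Of all genes, 4.79% had an unadjusted p under 0.05 with TG lower.

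The spread of the slow light chains was set against the mean of the 10 slow fibre genes, which was 8.54, 8.62 and 8.41 in TG and 8.46, 8.49 and 8.77 in WT. The genes in that mean varied unequally. Csrp3, Myoz2 and Ankrd2 spanned 1.54, 1.09 and 0.83 over the 6 arrays, and Myh7 spanned 0.30. Over the 6 arrays, Pearson's r with that mean was -0.12 for Myl2 (exact permutation p = 0.867, adjusted over 10 relations 0.867; Spearman's coefficient -0.09, p = 0.919, adjusted 0.919). For Myl3, r was 0.30 (exact permutation p = 0.569, adjusted 0.867; Spearman's coefficient 0.09, p = 0.919, adjusted 0.919). Without TG array 3 and WT array 3, the 2 arrays farthest from the median, r was -0.83 for Myl2 and -0.27 for Myl3. The strongest of the 10 relations was that of Mylk4, with r = -0.77 (exact permutation p = 0.025, adjusted 0.250; Spearman's coefficient -0.89, p = 0.0333, adjusted 0.333), and without the same arrays it was -0.37. None of the 10 passed after adjustment, and with Myh7 in place of the mean r was 0.09 for Mylk4, -0.45 for Myl2 and -0.69 for Myl3. The strongest relation with Myh7 was that of Myl6b, with r = -0.77 (exact permutation p = 0.0583, adjusted 0.481; Spearman's coefficient -0.94, p = 0.0167, adjusted 0.167), and without TG array 2 and WT array 2, the farthest from the median of Myh7, it was -0.95. Without these arrays, r with Myh7 changed sign for Myl2 and Myl3, to 0.28 and 0.36, and was 0.37 for Mylk4.

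Markers of other cells the tissue could hold were measured in the same way. Of 8 heart markers, 6 (Myh6, Myl7, Nppa, Nppb, Tnni3 and Ryr2) were between 5.15 and 6.25 on every array, and Tnnt2 and Actc1, which skeletal muscle also uses, were higher. None of the 8 passed (limma), with Nppb and Tnni3 at an unadjusted p under 0.05, both lower in TG, against 4.79% of all genes in that direction. The list means were 6.589 to 6.645 in TG and 6.654 to 6.765 in WT, which did not overlap. Means of 8 smooth muscle genes were 8.13 to 8.24 in TG and 8.11 to 8.24 in WT, with 0 passing (limma) and 0 at an unadjusted p under 0.05. Macrophage genes (8 of 8 above 0, median 0.12, list means 6.92 to 7.26 in TG and 6.72 to 7.04 in WT) and adipocyte genes (6 of 6 above 0, median 0.19, list means 6.64 to 6.81 in TG and 6.41 to 6.51 in WT) were measured too, and the macrophage means of the groups overlapped while the adipocyte means did not. Of all genes, 56.2% had differences below 0. Non-overlap of list means has no share over all genes to set beside it. No gene of either list passed (limma), with 2 and 1 at an unadjusted p under 0.05, all higher in TG, against 1.96% of all genes. The part of these cells in the member values was not tested.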

How the data were processed

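The deposited data are the authors' log2 expression values, in 1 table of 35557 probe sets and 6 arrays. RNA was extracted with Trizol, purified on columns and labelled with biotin, per the labels' protocols. The range of the values, 1.41 to 15.1, gave the scale, with summarization, background correction and normalization not given in the sources used here. The values were used as deposited, and 0 columns of other samples were present. Probe sets with 1 gene symbol in the platform annotation numbered 21789, with several 1621 and with none 12147. Each gene was represented by its probe set with the highest mean. TG and WT, 3 arrays each, were compared two-sided in R 4.3.3 with limma 3.58.1 (lmFit, then eBayes), with Benjamini-Hochberg adjustment over 19938 genes at 0.05. Correlations used exact permutations of the arrays in scipy 1.17.1. The fit was tested on simulated data. The limma p-values rest on the spread between 3 mice a group, with variance shared over genes by eBayes. Those of the correlations come from permuting all 6 arrays across both groups. This number of arrays limits precision.

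The members and all lists were chosen with earlier results of these data known, so lists are described by counts and medians. Named genes were the members, the genes of smallest unadjusted p in each list of related genes (2 per list), and 7 heavy chain and binding protein partners. Alternatives were each array left out in turn, quantile normalization, a shift of arrays to a common median, testing all probe sets or the mean per gene, testing genes above the median level alone, array weights, and eBayes with a trend or robust. Figures were drawn with matplotlib 3.10.9.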

Additional observations from a re-analysis of the deposited data

How the results depend on the processing

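No member passed the threshold under any of the 14 alternatives. Over all genes 1 passed as reported, 7 with an intensity trend, 2 among genes above the median level, 0 with robust moderation, with every probe set or with a common array median, and 0 with each array left out in turn. Members below 0 numbered 5 to 8, against 7 as reported. Myl2 and Myl6b were not among the genes above the median level. The differences that changed sign, none of them past the threshold, were Myl6b at 0.0122 with quantile normalization and 0.0186 with a common array median, and, without 1 array at a time, Myl6b from -0.0444 to 0.0527, Myl1 from -0.0349 to 0.0659 and Myl3 from -0.518 to 0.102. The cause was not tested. The other 7 members kept their sign, which for Mylk2 could not change by leaving out 1 array. No paired analysis was possible because the labels give the mice no replicate numbers shared between groups. Signal over background was not available to judge the dimmer probe sets.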

Other observations

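The genes whose pattern over the 6 arrays was most like that of a member were looked for among 2891 genes in the upper part of both level and spread, as a description without a test. For Myl2 they were Car8, Bcar3 and Nmi (r = 0.958, 0.957 and 0.937), for Mylpf Prr12, Crym and Cep83 (0.975, 0.951 and 0.919) and for Myl4 Ttll1, Samd4b and Tmem8b (0.986, 0.972 and 0.958). With 6 arrays and this many genes, high values of r are found by the search itself. Of all genes, 25.3% had their highest value on WT array 3, the array that also held the highest Myl3, Myl4, Mylpf and Mybpc2 values.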
